A study of Mus musculus with 30 samples.

Results

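The comparison described here sets 6 VEH-T10 mice, killed 1 h after a 10 min training session of the object location memory task, against 6 VEH-HC mice that stayed in the home cage. These 12 libraries, 1 per mouse, were chosen by their column labels from 30 libraries in 5 conditions. All 12 came from male C57BL/6J mice, labelled wild type (wt) and single-housed, aged 2 to 4 months. All had received the transfection reagent in vivo-jetPEI without DNA (VEH) by bilateral infusion, which the labels place 3 days before training. VEH-T10 mice were habituated to the chamber and then explored 2 identical objects for 10 min, whereas VEH-HC mice were handled only. The expression values are FPKM, fragments scaled by the length of the transcript and the size of the library. Of the 24883 rows in the table, the 13184 with a mean of at least 1 FPKM over all 30 libraries were tested. The libraries of the other conditions also shared in the variance estimate. Y397F-T10 and Y397D-T3 mice received plasmid for a CREST point mutant with the reagent, and VEH-T3 mice the reagent alone. Training lasted 10 min in Y397F-T10 and 3 min in VEH-T3 and Y397D-T3. The labels give the tissue as a dorsal hippocampus hemisphere and the methods as dorsal CA1 (dCA1). VEH-HC mice differed from VEH-T10 mice in habituation, chamber and objects as well as in training, and the hour at which VEH-HC tissue was collected was not given in the sources used here, so these cannot be told apart from training itself.

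In the object location task a mouse that explores a pair of objects for long enough later notices that 1 of them has been moved, a memory that depends on the dorsal hippocampus. Neuronal firing first switches on immediate-early genes, which need no new protein for their induction. Some of them encode transcription factors such as FOS, FOSB, EGR1 and NR4A3, and others act directly at synapses, such as ARC and the short HOMER1 isoform. Clock genes follow the time of day, heat shock genes answer heat and unfolded protein, and cold-inducible genes answer a fall in temperature.

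The dissected tissue held hippocampal markers in every library, and other tissue in unequal amounts. The summed FPKM of 5 CA1 markers ranged from 180 to 191 in VEH-HC and from 162 to 193 in VEH-T10, with means of 185 and 173 (exact permutation test, 2-sided, p = 0.0455, or 0.182 after adjustment over 8 marker lists). The summed FPKM of 10 dentate gyrus markers ranged from 188 to 231 in VEH-HC and from 118 to 262 in VEH-T10, so the tissue was not CA1 alone. The 16 markers of choroid plexus, the ventricular tissue that secretes cerebrospinal fluid, summed to between 944 and 5759 in VEH-HC. In VEH-T10 they summed to 4598 in mouse 1 and 3895 in mouse 4, and to between 13.5 and 156 in the other 4 mice. All 16 were lower on average in VEH-T10, with a median log2 fold change of -1.51, and none passed the threshold. The sums did not differ past 0.05 (exact permutation test, 2-sided, p = 0.155, or 0.31 after the same adjustment). Most of the sum was Ttr, which averaged 3097 of the 3294 FPKM in VEH-HC. The 11 thalamic markers summed to between 37.9 and 58.8 in VEH-HC and between 24.4 and 42.9 in VEH-T10, ranges that overlap (exact permutation test, 2-sided, p = 0.0195, or 0.156 after the same adjustment). No marker of choroid plexus, thalamus, deep cortical layers or CA1 was at 0 in every mouse of a group. The 12 microglial markers were all higher on average in VEH-T10, with a median log2 fold change of 0.19 and none past the threshold. Over all tested rows 40.3% lay above 0. The microglial sums ranged from 445 to 933 in VEH-HC and from 346 to 1571 in VEH-T10, so they overlapped widely (exact permutation test, 2-sided, p = 0.323, or 0.516 after the same adjustment). VEH-T10 mouse 1 stood lowest for oligodendrocyte and microglial markers, and VEH-HC mouse 4 had lower values for longer transcripts, by 0.109 on the log2 scale per doubling of length, against slopes from -0.05 to 0.073 in the other 11 mice. In bulk tissue, fewer cells of a type and less RNA per cell cannot be told apart.

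**Figure D1:**
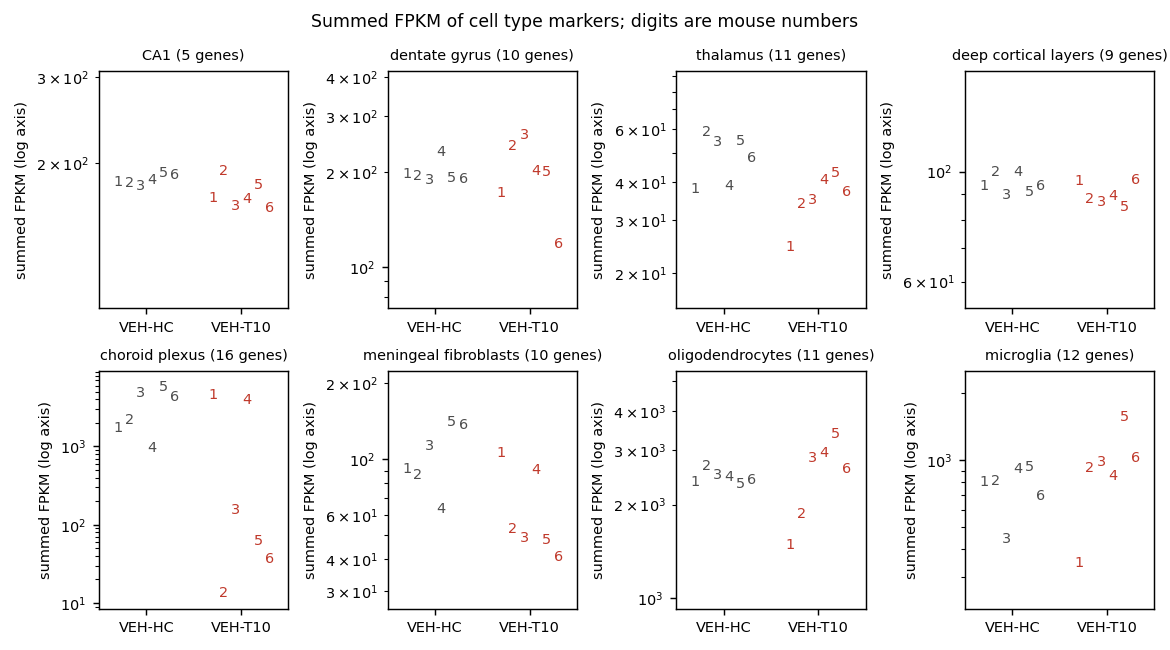
Summed FPKM of 8 cell type marker lists (log axis) in 6 VEH-HC (grey) and 6 VEH-T10 (red) mice, each digit the number of a mouse. Choroid plexus markers reached 4598 and 3895 in VEH-T10 mice 1 and 4 and stayed at or below 156 in the other 4, while CA1 markers lay between 180 and 191 in VEH-HC and between 162 and 193 in VEH-T10.

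At 1 h after training, 42 genes had risen and 66 had fallen relative to VEH-HC (limma, Benjamini-Hochberg adjusted p under 0.05), which is 0.319% and 0.501% of the tested rows. The 42 raised genes had FPKM ratios of 1.12 to 1.66 with a median of 1.3, and the 66 lowered genes had ratios of at most 0.905 with a median of 0.755. Larger decreases included those of Cited4, Slc17a6, Ctgf and Wnt9a, with ratios of 0.371, 0.379, 0.422 and 0.433. The 108 genes included immediate-early genes (Fosb, Nr4a3 and Homer1 raised) and clock genes (Per2 raised, Dbp, Ciart and Nr1d1 lowered). They also included heat shock genes (Hspa1b and Hsph1 raised, Hspa9 lowered) and the heat shock transcription factor Hsf1 (raised). Only 18 of the 108 stood in any of the pathway or marker lists. The 6 VEH-T10 values lay wholly above the 6 VEH-HC values in 34 of the 42 raised genes and wholly below them in 50 of the 66 lowered genes. Over all tested rows the groups did not overlap in 0.789% (higher) and 1.64% (lower). The called genes were selected on the values of the same mice, so their separation is largely built in. The median log2 fold change of all tested rows was -0.03 and 40.3% of them lay above 0. Subtracting each library's median gave 33 raised and 13 lowered genes, of which 26 and 13 were among the 42 and 66, so that 71.7% of the calls were raised in place of 38.9%.

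**Figure D2:**
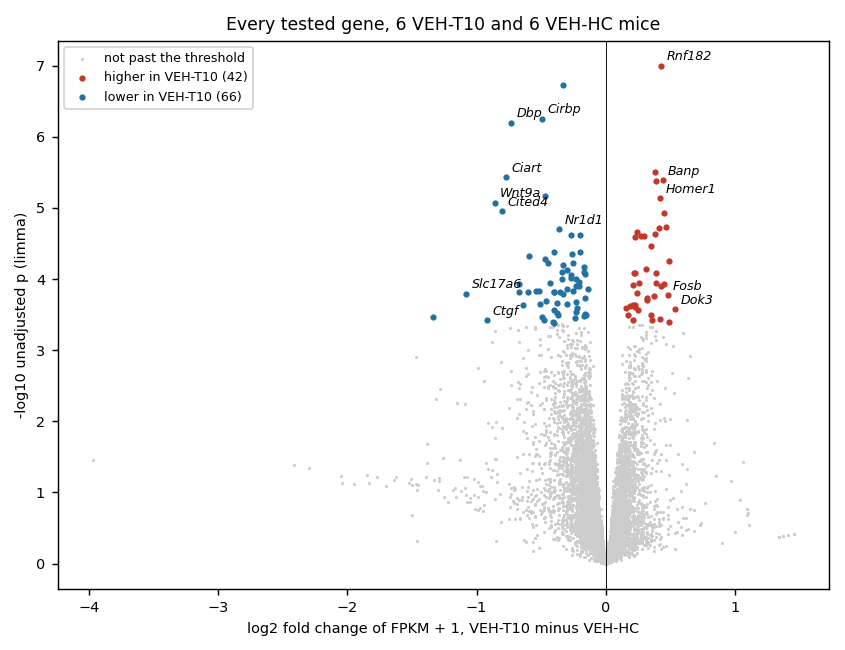
Log2 fold change of FPKM + 1 (x axis, VEH-T10 minus VEH-HC) against the -log10 unadjusted p (y axis) for each of the 13184 tested rows, with the 42 raised genes in red and the 66 lowered genes in blue. Among the genes that passed, decreases such as that of Slc17a6 (-1.08) were larger than any increase, none of which exceeded 0.54 (Dok3). The grey points with larger changes had wide spreads between mice.

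How many genes passed depended on single mice and on marker covariates. With 1 VEH-HC mouse left out at a time, mice 1 to 6 in order, 23, 10, 26, 32, 19 and 31 genes were raised and 29, 13, 37, 63, 28 and 29 lowered. With VEH-T10 mice 1 to 6 left out in turn, 62, 25, 21, 16, 25 and 8 genes were raised and 122, 37, 23, 21, 29 and 9 lowered. The smallest counts came without VEH-T10 mouse 6 and the largest without VEH-T10 mouse 1. With the scores of choroid plexus, thalamic and deep cortical markers as covariates 0 genes passed in limma, with a smallest adjusted p of 0.684. An unadjusted p under 0.05 was reached by 628 of the 13184 tested rows, not more than chance alone gives. In that model the median log2 fold change went from 0.35 to 0.14 over the 42 raised genes, with 41 still above 0, and from -0.35 to -0.16 over the 66 lowered genes, with 61 still below 0.

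15 genes passed in all 12 fits with a mouse left out. The 8 raised ones were Sirt4, Banp, Rnf182, Homer1, Kdm7a, Lurap1l, Rnf112 and Per2. The 7 lowered ones included Slc8a3, Cirbp, Dbp, Ciart, Cited4 and Wnt9a. At the other end, 15 raised and 27 lowered genes passed in 3 or fewer of the 12 fits. Below, the number of these 12 fits in which a call held stands beside genes described singly and as a range for genes listed together. Each of these fits also has fewer mice in a group, so a lost call does not by itself show that it rested on the absent mouse. Subtracting library medians kept 26 of the 42 raised and 13 of the 66 lowered calls. Calls given below without that result may not hold under it.

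**Figure D3:**
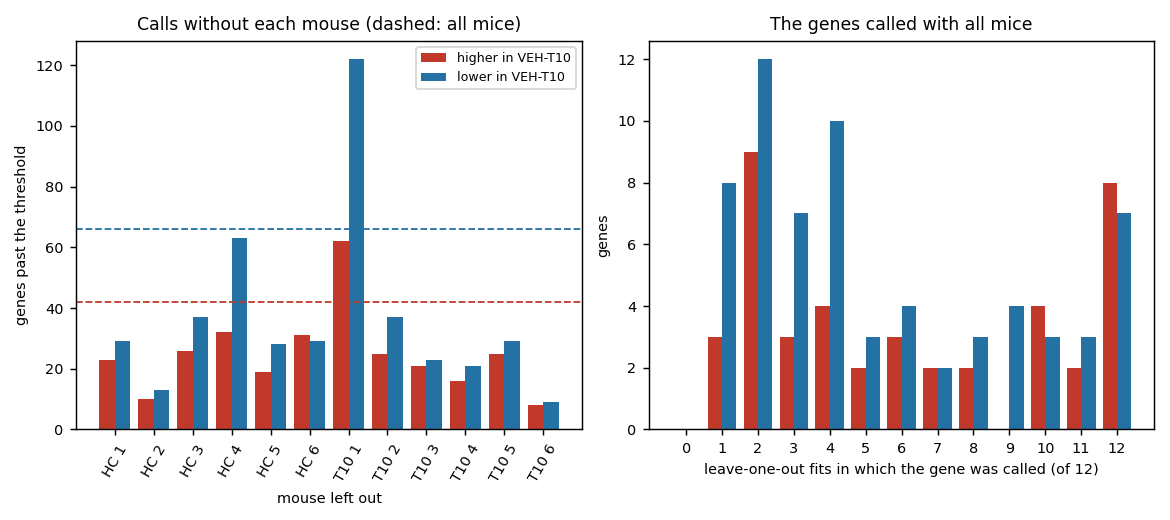
Left, genes past the threshold (y axis) with each of the 12 mice left out (x axis), raised in red and lowered in blue, with dashed lines at 42 and 66 for all mice. Right, the number of genes (y axis) by how many of the 12 fits called them (x axis), with 8 raised and 7 lowered genes at 12.

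**Figure D4:**
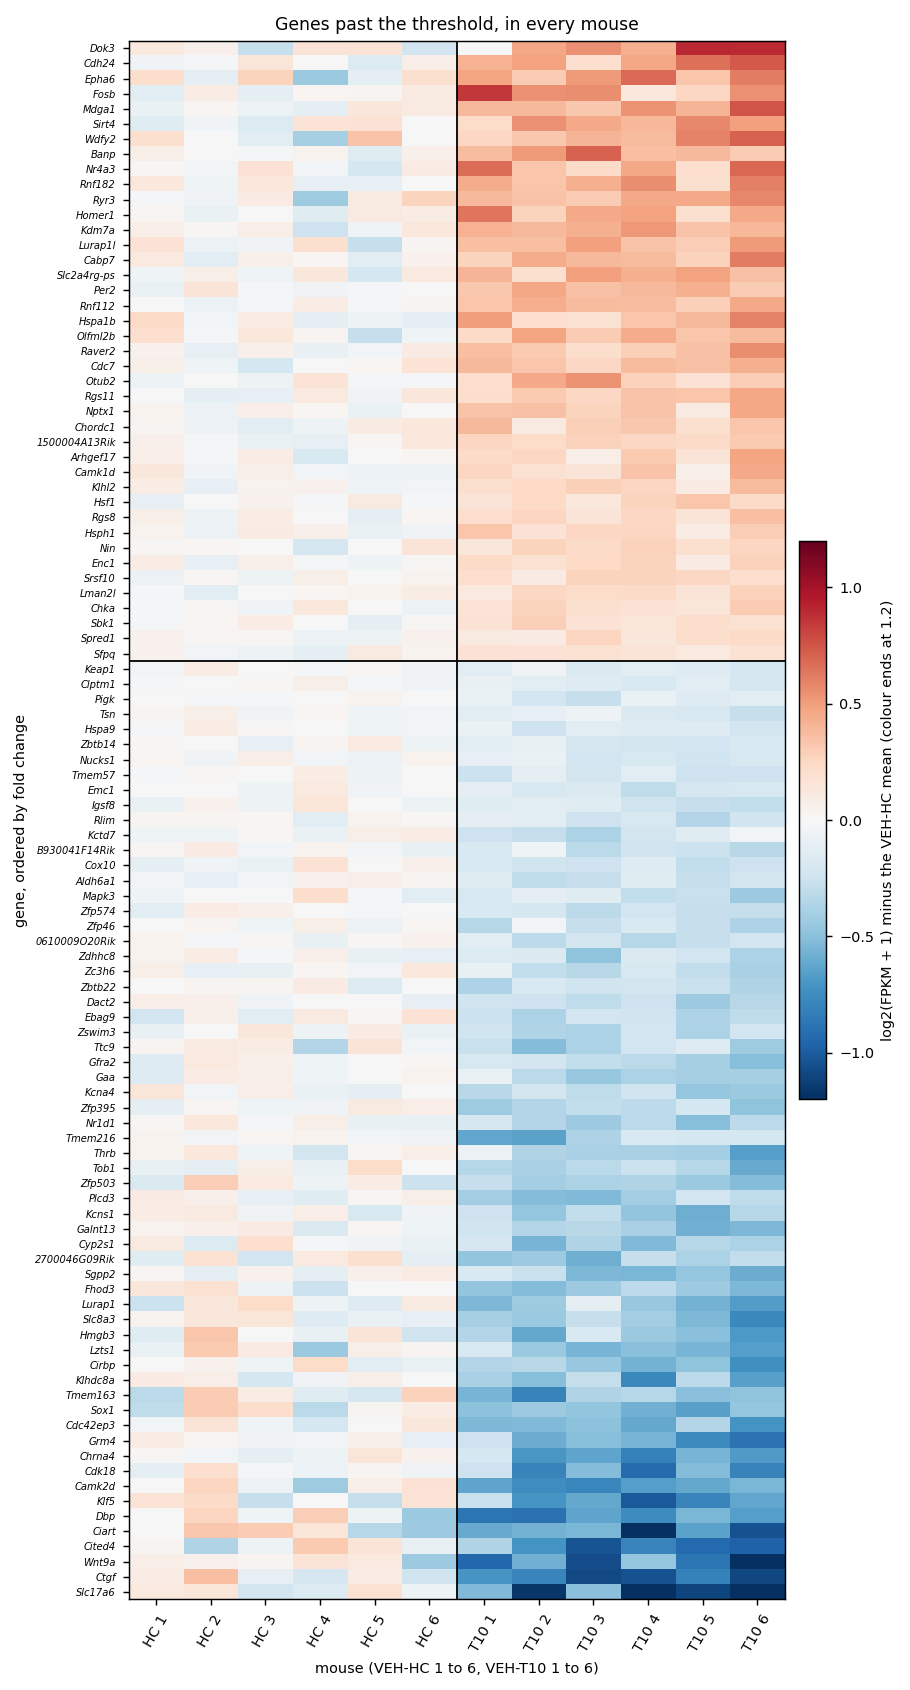
Log2(FPKM + 1) minus the VEH-HC mean (colour, from -1.2 to 1.2) of 103 of the 108 genes that passed (rows) in 6 VEH-HC and 6 VEH-T10 mice (columns). The contrast between the left and right sides is what selected these genes, and the plot shows how far single mice depart from it, for example Wnt9a in VEH-HC mouse 6.

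Promoter sequence was examined for raised and lowered genes in RefSeq windows of GRCm38.p6 that run from 250 bases before to 50 after the start. The windows matched 30 raised genes of 42 and 47 lowered genes of 66, and 9975 of the 13115 tested symbols. Each letter motif was searched on both strands. The short site TGACG of the cAMP response element, the binding site of CREB, was held by 13 of the 30 raised genes (43.3%) and 14 of the 47 lowered genes (29.8%), against 35.4% of all matched genes. The full site TGACGTCA, which contains the short one, was held by 0 of either against 3.58% of all, and the EGR site GCGTGGGCG by 0 of either against 1.4% of all. The CArG box, bound by serum response factor, was held by 1 raised and 1 lowered gene (1.58% of all), the AP-1 site TGANTCA by 1 raised and 2 lowered (5.99% of all) and the D-box TTATGTAA by 0 of either (0.682% of all). The E-box CACGTG, bound by CLOCK and ARNTL, was held by 1 raised and 6 lowered genes (11.8% of all). Of the called clock genes Ciart was among them, and Per2, Dbp and Nr1d1 were not.

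The bases upstream of the start are shown for the 3 raised immediate-early genes, all of which held TGACG, and for Ciart, which held 3 E-boxes. The fifth is Hspa1b, with a pair of inverted heat shock units GAANNTTC, a motif chosen after the values had been seen. That motif was held by 6 of the 30 raised genes (Chordc1, Epha6, Homer1, Hspa1b, Hsph1 and Nin) and by 3 of the 47 lowered genes, against 7.06% of all. In Hsph1 and Epha6 it lay after the start, and in Homer1 it lay in a second, downstream window. Capitals mark the motif on either strand, and each stretch reads 5′ to 3′ on the gene's strand. Fosb is on the minus strand at chr7:19310046-19310295, Nr4a3 on the plus strand at chr4:48045055-48045304 and Homer1 on the plus strand at chr13:93303507-93303756. Hspa1b is on the minus strand at chr17:34959239-34959488 and Ciart on the minus strand at chr3:95882229-95882478.
Fosb: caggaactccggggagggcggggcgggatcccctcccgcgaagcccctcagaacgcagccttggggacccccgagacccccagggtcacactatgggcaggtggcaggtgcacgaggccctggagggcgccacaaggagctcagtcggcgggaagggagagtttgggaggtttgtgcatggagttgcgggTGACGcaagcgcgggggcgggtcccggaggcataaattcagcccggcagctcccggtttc
Nr4a3: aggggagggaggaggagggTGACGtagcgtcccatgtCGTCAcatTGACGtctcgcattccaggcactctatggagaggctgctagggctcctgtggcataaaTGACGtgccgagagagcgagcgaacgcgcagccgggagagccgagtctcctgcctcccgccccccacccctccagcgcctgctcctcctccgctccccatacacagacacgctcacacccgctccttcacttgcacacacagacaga
Homer1: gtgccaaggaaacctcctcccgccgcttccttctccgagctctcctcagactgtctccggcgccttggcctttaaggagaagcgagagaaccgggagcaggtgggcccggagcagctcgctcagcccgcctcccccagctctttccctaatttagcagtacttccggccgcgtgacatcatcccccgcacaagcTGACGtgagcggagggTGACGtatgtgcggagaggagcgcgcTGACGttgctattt
Hspa1b: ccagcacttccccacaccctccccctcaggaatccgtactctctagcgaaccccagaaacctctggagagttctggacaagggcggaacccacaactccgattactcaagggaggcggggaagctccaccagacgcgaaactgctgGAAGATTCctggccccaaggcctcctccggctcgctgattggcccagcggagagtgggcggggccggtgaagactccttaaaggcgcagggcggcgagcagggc
Ciart: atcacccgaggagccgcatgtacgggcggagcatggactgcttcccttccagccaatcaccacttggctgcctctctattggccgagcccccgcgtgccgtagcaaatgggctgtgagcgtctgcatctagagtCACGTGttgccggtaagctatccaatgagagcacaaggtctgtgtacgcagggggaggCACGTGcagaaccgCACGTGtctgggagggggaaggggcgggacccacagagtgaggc

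Among 24 tested activity-induced transcription factors, 2 rose and 0 fell, against 0.319% and 0.501% of all tested rows. The median log2 fold change of the list was 0.09 against -0.03 over all tested rows. Fosb, a FOS-family partner of JUN proteins, ranged from 1.44 to 1.88 FPKM in VEH-HC with a median of 1.73, and from 1.92 to 3.84 in VEH-T10 with a median of 2.92. The groups did not overlap, though 1 VEH-T10 mouse lay just above the VEH-HC range. Fosb rose 1.66-fold (log2 fold change 0.48, SE 0.111, adjusted p = 0.0319) and passed in 4 of 12 fits. Nr4a3, an orphan nuclear receptor induced by firing, ranged from 12.4 to 16.5 FPKM (median 14.4) in VEH-HC and from 16.9 to 24.0 (median 19.5) in VEH-T10. All 6 trained mice lay above the home-cage mice, and Nr4a3 rose 1.38-fold (log2 fold change 0.43, SE 0.097, adjusted p = 0.0299, 7 of 12 fits). The log2 fold changes with the marker covariates were 0.58 for Fosb and 0.12 for Nr4a3.

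Several better-known members stood apart between the groups without passing. Egr1, a zinc-finger factor used as a marker of active neurons, ranged from 30.8 to 39.7 FPKM in VEH-HC and from 46.6 to 53.1 in VEH-T10, with no overlap and an adjusted p of 0.0651. Fos ranged from 3.85 to 6.46 FPKM in VEH-HC and from 6.89 to 9.16 in VEH-T10, again with no overlap (adjusted p = 0.0658). Egr4 ranged from 14.3 to 19.5 and from 19.7 to 24.7 FPKM (adjusted p = 0.0637). In these 3 genes the lowest trained mouse exceeded the highest home-cage mouse, and the ratios of the means were 1.39, 1.5 and 1.29. Their log2 fold changes were 0.47, 0.78 and 0.49 with the marker covariates, a model in which 0 genes passed. Which of these genes passed turned on the scaling, since with library medians subtracted Egr1 passed (adjusted p = 0.0483) and Fosb and Nr4a3 did not (adjusted p = 0.0611 for both). Egr2, near the detection limit at 0.667 ± 0.415 FPKM in VEH-HC (SD, n = 6), was 1.33 ± 0.348 in VEH-T10 and its groups overlapped. The members of the list with the highest levels apart from Egr1, all JUN proteins, overlapped between the groups. Jund averaged 90.4 FPKM in VEH-HC and 80.1 in VEH-T10, Jun 45.7 and 41.5, and Junb 43.3 and 47.7 (adjusted p from 0.244 to 0.571).

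Of 30 tested activity-induced effector genes, 1 rose and 0 fell, against 0.319% and 0.501% of all tested rows. Their median log2 fold change was 0.01. Homer1, a scaffold of metabotropic glutamate receptors whose short isoform is induced by activity, ranged from 14.4 to 17.4 FPKM (median 16.2) in VEH-HC and from 18.5 to 25.7 (median 22.4) in VEH-T10. It rose 1.36-fold (log2 fold change 0.42, SE 0.0763, adjusted p = 0.00959) and passed in 12 of 12 fits, and its log2 fold change was 0.17 with the marker covariates. The value sums the isoforms of Homer1, so the short one cannot be read on its own. Homer3, a related scaffold, ranged from 19.2 to 24.3 FPKM in VEH-HC and from 25.0 to 37.3 in VEH-T10, without overlap, and did not pass (adjusted p = 0.0577). Its log2 fold change of 0.38 went to 0.03 with the marker covariates. Arc, which controls AMPA receptor uptake and is named here after its values had been seen, averaged 37.4 ± 6.1 FPKM in VEH-HC and 40.8 ± 5.02 in VEH-T10 (SD, n = 6), with overlap and an adjusted p of 0.739. The neuropeptide precursor Vgf averaged 119 and 115 FPKM, Nrn1 135 and 157, Scg2 74.8 and 73.1 and the kinase Plk2 69.5 and 75.3, none of them past the threshold.

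Signalling through ERK induces its own brakes, and Spred1, an inhibitor of RAS and RAF signalling, was the 1 gene called of 14 tested ERK feedback genes. It ranged from 20.3 to 22.2 FPKM in VEH-HC and from 23.0 to 25.8 in VEH-T10 and rose 1.13-fold (adjusted p = 0.0446, 1 of 12 fits). Dusp6, the phosphatase of ERK, averaged 18.3 ± 0.924 FPKM in VEH-HC and 24.3 ± 1.84 in VEH-T10 (SD, n = 6), with no overlap and an adjusted p of 0.0526. Its log2 fold change of 0.39 went to 0.1 with the marker covariates. With library medians subtracted Dusp6 passed (adjusted p = 0.039) and Spred1 did not (adjusted p = 0.0884). Mapk3, which encodes ERK1, fell from a mean of 107 to 90.7 FPKM (adjusted p = 0.0468, 3 of 12 fits), with overlap. It did not pass under that scaling either (adjusted p = 0.0957). The 14 genes had 7 log2 fold changes above 0 and 7 below. Among all tested rows 0.319% were called higher and 0.501% lower.

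Cdh24, Mdga1 and Epha6, which encode cell surface proteins, were among the 12 raised genes with the largest fold changes without overlap. Cdh24, a classical-type cadherin, ranged from 3.98 to 5.19 FPKM (median 4.54) in VEH-HC and from 5.42 to 8.28 (median 6.75) in VEH-T10. The groups did not overlap, and it rose by 0.49 on the log2 scale (SE 0.104, adjusted p = 0.0243, 8 of 12 fits). Mdga1, a surface protein that binds neuroligin, ranged from 8.17 to 9.89 FPKM (median 8.77) and from 11.4 to 15.7 (median 12.1). Every trained mouse was above every home-cage mouse, and it rose 1.43-fold (adjusted p = 0.0147, 11 of 12 fits). Epha6, a receptor for ephrin ligands, ranged from 7.39 to 12.7 FPKM (median 10.8) in VEH-HC and from 13.1 to 17.3 (median 15.1) in VEH-T10. It passed narrowly (adjusted p = 0.0498) and in 1 of 12 fits, and its log2 fold change of 0.49 went to 0.03 with the marker covariates. Once library medians were subtracted, Epha6 did not pass (adjusted p = 0.0555). It was the only gene called of 17 tested Eph receptors and ephrins, whose median log2 fold change was 0. Among all tested rows 0.319% rose and 0.501% fell. Nptx1, a secreted pentraxin that gathers AMPA receptors, averaged 130 ± 5.47 FPKM in VEH-HC and 162 ± 13 in VEH-T10 (SD, n = 6, adjusted p = 0.0263, 8 of 12 fits). The log2 fold changes of Cdh24, Mdga1 and Nptx1 went to 0.24, 0.19 and 0.1 with those covariates.

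Ryr3, Cabp7, Camk1d, Rgs8 and Rgs11, with roles in calcium handling or G protein signalling, also rose. Ryr3, a calcium release channel of the endoplasmic reticulum, ranged from 2.52 to 4.7 FPKM (median 3.88) in VEH-HC and from 4.85 to 6.07 (median 5.34) in VEH-T10. The groups were separate by a narrow margin, and it rose 1.42-fold (adjusted p = 0.0475, 2 of 12 fits). Cabp7, a calcium-binding protein, averaged 91.7 ± 6.59 FPKM in VEH-HC and 121 ± 11.4 in VEH-T10 (SD, n = 6, adjusted p = 0.0263, 6 of 12 fits). Camk1d, a calmodulin-dependent kinase, rose 1.19-fold with overlap (adjusted p = 0.0309, 6 of 12 fits), and its relative Camk2d fell. Thus 1 of 23 tested calcium sensors and calmodulin kinases rose and 1 fell, against 0.319% and 0.501% of all tested rows. The regulators of G protein signalling Rgs8 and Rgs11 rose 1.18-fold and 1.28-fold (adjusted p = 0.0392 and 0.0336, 2 and 3 of 12 fits). Once library medians were subtracted, Cabp7 passed (adjusted p = 0.0268). Ryr3, Camk1d, Rgs8 and Rgs11 then did not (adjusted p from 0.0583 to 0.0689). In the model with marker covariates the log2 fold changes went from 0.42 to 0.1 for Ryr3, from 0.39 to 0.08 for Cabp7, from 0.24 to 0.03 for Camk1d, from 0.23 to -0.04 for Rgs8 and from 0.32 to 0.12 for Rgs11. Hpca, the abundant calcium sensor hippocalcin, averaged 1204 ± 170 FPKM in VEH-HC and 1506 ± 174 in VEH-T10 (SD, n = 6), with overlap and an adjusted p of 0.154. The other members of the list with the highest levels did not pass either, and Calm2, Calm3 and Camk2a averaged 1147, 1053 and 781 FPKM in VEH-HC and 1184, 1102 and 895 in VEH-T10.

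Beside Homer1 and Per2, the raised genes that passed in all 12 fits were 2 ubiquitin ligases or RING finger proteins, 2 nuclear proteins, a sirtuin and Lurap1l. Rnf182, a brain-enriched ubiquitin ligase, ranged from 10.7 to 12.7 FPKM (median 11.3) in VEH-HC and from 13.3 to 18.1 (median 16) in VEH-T10. It rose 1.38-fold with no overlap (log2 fold change 0.43, SE 0.0603, adjusted p = 0.00126). Rnf112, a neuronal RING finger protein, ranged from 116 to 130 FPKM (median 121) and from 149 to 168 (median 158), a rise of 1.3-fold (adjusted p = 0.00689). Banp, a DNA-binding protein of the nuclear matrix, ranged from 2.91 to 3.52 FPKM (median 3.37) in VEH-HC and from 4.33 to 6.03 (median 4.6) in VEH-T10. A gap separated the groups, and Banp rose 1.47-fold (adjusted p = 0.00689). Kdm7a, a histone demethylase, ranged from 4.72 to 6.38 FPKM (median 6.0) and from 7.58 to 8.72 (median 7.99), and rose 1.39-fold (adjusted p = 0.0147). Sirt4, a mitochondrial sirtuin, ranged from 4.68 to 6.17 FPKM (median 5.26) and from 6.4 to 8.47 (median 7.79), and rose 1.43-fold (adjusted p = 0.0121). Lurap1l ranged from 14.1 to 19.9 FPKM (median 17.3) and from 21.5 to 25.1 (median 22.6), and rose 1.33-fold (adjusted p = 0.00689). With the marker covariates the log2 fold change of Banp stayed at 0.42 from 0.44, whereas that of Rnf112 went from 0.38 to 0.08, that of Lurap1l from 0.39 to 0.14 and those of Rnf182, Kdm7a and Sirt4 to 0.23, 0.23 and 0.25. RNA-binding proteins with small increases were Sfpq (1.12-fold), Srsf10 (1.17-fold) and Raver2 (1.3-fold), with adjusted p values of 0.0396, 0.0299 and 0.0189 in 2, 4 and 10 of 12 fits.

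Clock genes changed in both directions. Of 19 tested members, 1 rose and 3 fell, against 0.319% and 0.501% of all tested rows. The median log2 fold change was -0.1 against -0.03 over all rows. Per2, a repressor in the core loop that light and activity can induce, ranged from 4.39 to 5.32 FPKM (median 4.65) in VEH-HC and from 6.04 to 6.87 (median 6.36) in VEH-T10. It rose 1.36-fold (adjusted p = 0.0147, 12 of 12 fits). Dbp, a D-box activator driven by CLOCK and ARNTL, ranged from 31.4 to 53.3 FPKM (median 42.4) in VEH-HC and from 22.7 to 29.2 (median 26.0) in VEH-T10, and fell to 0.587 of the VEH-HC mean (log2 fold change -0.73, SE 0.114, adjusted p = 0.00208, 12 of 12 fits). Ciart, a repressor of the same activators, ranged from 4.65 to 8.59 FPKM (median 7.06) in VEH-HC and from 2.35 to 4.24 (median 3.96) in VEH-T10 (ratio 0.524, adjusted p = 0.00689, 12 of 12 fits). Nr1d1, which encodes REV-ERBα, averaged 55.5 ± 3.4 FPKM in VEH-HC and 43.2 ± 3.2 in VEH-T10 (SD, n = 6, adjusted p = 0.0147, 11 of 12 fits). All 4 separated the groups without overlap. In FPKM the SDs of Dbp and Ciart were 8.03 and 1.68 in home-cage mice and 2.56 and 0.819 in trained mice. Their means were also higher in home-cage mice, so the SDs alone do not show a larger relative spread. Among the other members with high levels, Tef averaged 82.3 and 84.4 FPKM, Bhlhe40 35.5 and 34.7, Cry2 34.4 and 31.1 and Hlf 23.9 and 18.1 in VEH-HC and VEH-T10, none past the threshold. With the marker covariates the log2 fold changes were 0.3 for Per2, -0.38 for Dbp, -0.56 for Ciart and -0.2 for Nr1d1, and Nr1d1 did not pass once library medians were subtracted (adjusted p = 0.0697). VEH-T3 mice, trained for 3 min and compared with the same VEH-HC mice, had log2 fold changes of 0.36, -0.72 and -0.67 for Per2, Dbp and Ciart.

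Of 18 tested heat shock genes 2 rose and 1 fell, against 0.319% and 0.501% of all tested rows. The median log2 fold change of the list was 0.06. Hspa1b, an inducible HSP70, ranged from 7.34 to 9.57 FPKM (median 7.74) in VEH-HC and from 9.26 to 12.6 (median 10.6) in VEH-T10. The ranges overlapped at 1 edge, and it rose 1.33-fold (adjusted p = 0.0319, 5 of 12 fits). Its near-identical neighbour Hspa1a averaged 7.61 and 8.79 FPKM and did not pass (adjusted p = 0.217), and since reads of the pair can be split between them the values of both are uncertain. Hsph1, an HSP110 that recharges HSP70, ranged from 69.9 to 79.3 FPKM (median 74.0) and from 78.9 to 93.9 (median 88.4), and rose 1.18-fold (adjusted p = 0.0147, 10 of 12 fits). With library medians subtracted neither Hspa1b nor Hsph1 passed (adjusted p = 0.0583 and 0.0599). The mitochondrial HSP70 Hspa9 fell from a mean of 74.5 to 66.5 FPKM (adjusted p = 0.0439, 1 of 12 fits) and did not pass under that scaling (adjusted p = 0.128). The members with the highest levels did not pass: Hspa8 averaged 785 and 847 FPKM, Hsp90ab1 709 and 723, Hsp90aa1 350 and 345 and Cryab 111 and 110. Outside the list, Hsf1, the transcription factor of the heat shock response, rose 1.19-fold from a mean of 12.3 to 14.7 FPKM without overlap (adjusted p = 0.0263, 6 of 12 fits), and Chordc1, an HSP90 co-chaperone, rose 1.22-fold (adjusted p = 0.0147, 10 of 12 fits).

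Cirbp, the cold-inducible RNA-binding protein, fell. It ranged from 48.1 to 61.8 FPKM (median 52.1) in VEH-HC and from 31.4 to 41.8 (median 38.1) in VEH-T10, with every trained mouse below every home-cage mouse. The log2 fold change was -0.49 (SE 0.0756, adjusted p = 0.00208) and -0.32 with the marker covariates, and it passed in 12 of 12 fits. Rbm3, the other well-known cold-inducible RNA-binding protein and named here after its values had been seen, averaged 86.6 ± 10.8 FPKM in VEH-HC and 68.4 ± 5.75 in VEH-T10 (SD, n = 6), without overlap, and did not pass (adjusted p = 0.107).

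**Figure D5:**
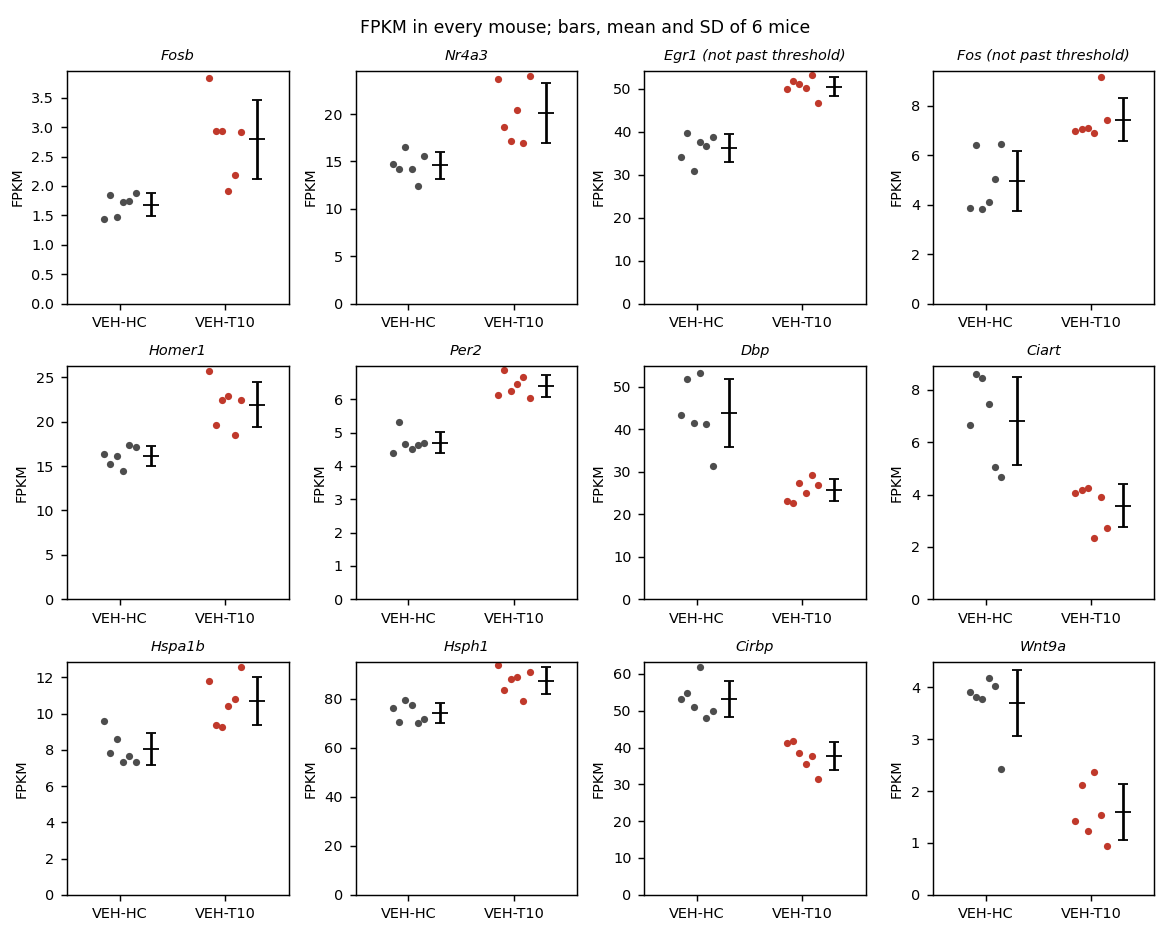
FPKM (y axes, from 0) of 12 genes in 6 VEH-HC (grey) and 6 VEH-T10 (red) mice, 1 point per mouse, with the mean and SD beside them. Egr1 and Fos separated the groups without passing the threshold, and of the other 10 genes only Hspa1b and Hsph1 had overlapping groups.

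The lowered genes that passed in all 12 fits included a WNT ligand, a transcriptional cofactor and an ion exchanger. Wnt9a, a secreted WNT ligand, ranged from 2.43 to 4.19 FPKM (median 3.86) in VEH-HC and from 0.931 to 2.37 (median 1.48) in VEH-T10. It fell by 0.86 on the log2 scale (SE 0.159, adjusted p = 0.0101) and had a log2 fold change of -0.72 with the marker covariates, and it was the only gene called of 13 tested WNT ligands and antagonists, whose median was -0.22. Cited4, a partner of the coactivators CBP and p300, ranged from 1.38 to 2.8 FPKM (median 2.03) and from 0.484 to 1.38 (median 0.682), with the groups meeting at 1.38 to 3 digits without crossing (ratio 0.371, adjusted p = 0.0121). It was the only gene called of 16 tested in the list of CBP, CREB and their coactivators. Among all tested rows 0.319% rose and 0.501% fell. Slc8a3, a sodium-calcium exchanger, averaged 4.23 ± 0.464 and 2.77 ± 0.427 FPKM (SD, n = 6, adjusted p = 0.00959).

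Zbtb14, Zbtb22, Zfp46, Zfp395, Zfp503, Zfp574, Zc3h6, Zswim3 and Klf5, which encode zinc-finger proteins, fell with log2 fold changes from -0.17 (Zbtb14) to -0.67 (Klf5). They passed in between 2 (Zfp503 and Zswim3) and 11 (Zbtb22) of 12 fits. The thyroid hormone receptor Thrb fell from a mean of 6.34 to 4.66 FPKM (adjusted p = 0.0374, 2 of 12 fits) and the antiproliferative gene Tob1 from 19.1 to 14.5 FPKM (adjusted p = 0.0439, 2 of 12 fits). Kcna4 and Kcns1, which encode potassium channel subunits, also fell, with Kcna4 at 5.96 ± 0.493 and 4.51 ± 0.383 FPKM (SD, n = 6, adjusted p = 0.0263, 7 of 12 fits) and Kcns1 at 6.58 ± 0.588 and 4.75 ± 0.499 (SD, n = 6, adjusted p = 0.0406, 2 of 12 fits). Keap1, the sensor of oxidative stress that holds NRF2 in check, had the smallest decrease, from a mean of 27.9 to 25.3 FPKM (adjusted p = 0.0308, 5 of 12 fits). Once library medians were subtracted, Tob1 passed (adjusted p = 0.0397). Thrb, Kcna4, Kcns1 and Keap1 then did not (adjusted p from 0.0786 to 0.187).

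The largest decreases included genes that mark neurons outside CA1. Slc17a6, the vesicular glutamate transporter VGLUT2 of thalamic neurons, ranged from 3.6 to 5.06 FPKM (median 4.48) in VEH-HC and from 0.651 to 2.79 (median 1.45) in VEH-T10. Ctgf, a matrix protein used as a marker of the deepest cortical layer, ranged from 3.67 to 6.09 FPKM (median 4.5) and from 1.59 to 2.37 (median 1.9). Both separated the groups, with log2 fold changes of -1.08 (adjusted p = 0.031, 4 of 12 fits) and -0.92 (adjusted p = 0.0479, 1 of 12 fits). Neither passed once library medians were subtracted (adjusted p = 0.0599 and 0.0796). With the marker covariates the log2 fold changes of these 2 genes were -0.02 and 0.05. They are themselves members of the thalamic and deep cortical lists, so that part of this reduction follows from how the covariates were built.

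Other members of these lists were lower as well without passing. Of 9 tested thalamic markers 1 fell and 8 had a log2 fold change below 0 (median -0.24). Among 7 tested deep cortical markers 1 fell and 5 were below 0 (median -0.21). Over all tested rows 0.501% fell and 40.3% lay above 0. Zic1, of the thalamic list, averaged 9.04 ± 4.37 FPKM in VEH-HC and 2.77 ± 0.802 in VEH-T10 (SD, n = 6), with overlap and an adjusted p of 0.11. Of the deep cortical list, Cplx3 averaged 2.16 and 0.898 FPKM and Rprm 20.3 and 13.9, both without overlap (adjusted p = 0.0915 and 0.122), whereas Hs3st4 averaged 35.9 and 44.6 (adjusted p = 0.134). Zic4 and Nxph4, whose means were under 1 FPKM over all libraries and which were not tested, averaged 1.18 and 1.3 FPKM in VEH-HC and 0.505 and 0.499 in VEH-T10. The part of unequal tissue content in these decreases was not tested.

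Other large decreases without overlap were those of Chrna4, Grm4, Camk2d, Cdk18, Sox1 and Cdc42ep3. Chrna4, a nicotinic receptor subunit, ranged from 4.55 to 5.66 FPKM (median 5.01) in VEH-HC and from 2.43 to 4.2 (median 2.83) in VEH-T10 (log2 fold change -0.6, adjusted p = 0.0308, 3 of 12 fits). Grm4, a presynaptic metabotropic glutamate receptor, ranged from 3.31 to 3.93 FPKM (median 3.61) and from 1.51 to 2.89 (median 2.11) (log2 fold change -0.59, adjusted p = 0.0221, 10 of 12 fits). In both, every trained mouse was lower than every home-cage mouse. Camk2d, the delta subunit of calmodulin kinase II, ranged from 6.58 to 11.2 FPKM (median 9.47) and from 4.92 to 5.96 (median 5.52), and Cdk18, a cyclin-dependent kinase, from 7.3 to 9.27 (median 7.76) and from 3.7 to 6.52 (median 4.67). Their log2 fold changes were -0.67 and -0.64 (adjusted p = 0.0308 and 0.0376, 2 and 1 of 12 fits), and 0.03 and -0.18 with the marker covariates. Sox1, a transcription factor of neural progenitors, ranged from 5.15 to 8.47 FPKM (median 7.01) and from 3.89 to 4.69 (median 4.49), and Cdc42ep3, an effector of CDC42, from 2.59 to 3.64 (median 3.12) and from 1.54 to 2.27 (median 1.87). These 2 genes fell by 0.52 and 0.54 on the log2 scale (adjusted p = 0.0308 for both, 4 and 3 of 12 fits). With the marker covariates the log2 fold changes were -0.18 for Chrna4, -0.15 for Grm4, -0.18 for Sox1 and -0.02 for Cdc42ep3. Once library medians were subtracted, only Cdc42ep3 of these genes passed (adjusted p = 0.039). The others had adjusted p values from 0.0555 (Grm4) to 0.0819 (Cdk18).

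Further raised genes spanned log2 fold changes from 0.19 (Sbk1) to 0.54 (Dok3). Dok3, an adaptor protein of immune receptor signalling, had the largest increase, from 3.55 ± 0.603 to 5.71 ± 1.52 FPKM (SD, n = 6, adjusted p = 0.0402, 2 of 12 fits), but its groups overlapped. The most abundant were Enc1, an actin-binding kelch protein, at 202 ± 10.1 and 234 ± 10.3 FPKM (SD, n = 6, adjusted p = 0.0263, 7 of 12 fits), and Klhl2, another kelch protein, at 82.7 ± 4.11 and 98.1 ± 6.68 (SD, n = 6, adjusted p = 0.0147, 10 of 12 fits). In the model with marker covariates the log2 fold changes of Enc1 and Klhl2 went from 0.22 and 0.24 to 0.02 for both. That of Dok3 was 0.42. Others were Wdfy2, Slc2a4rg-ps, Olfml2b, Cdc7, Otub2, 1500004A13Rik, Arhgef17, Nin, Lman2l and Chka, which with Sbk1 passed in 1 to 5 of 12 fits.

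Further lowered genes spanned log2 fold changes from -0.15 (Clptm1) to -0.51 (Tmem163). Enzymes of metabolism among them were Gaa, the lysosomal enzyme of glycogen breakdown, at 125 ± 7.96 and 98.7 ± 9.69 FPKM (SD, n = 6, adjusted p = 0.029, 4 of 12 fits), and Cox10, an assembly factor of cytochrome oxidase, at 8.97 ± 0.729 and 7.5 ± 0.293 FPKM (SD, n = 6, adjusted p = 0.0418, 2 of 12 fits). Aldh6a1, Cyp2s1, Pigk, Galnt13 and Sgpp2, which encode enzymes, fell by log2 fold changes between -0.16 (Pigk) and -0.43 (Sgpp2) and passed in 2 to 10 of 12 fits. Gfra2, the receptor subunit for neurturin, fell from a mean of 11.8 to 9.22 FPKM (adjusted p = 0.0256, 8 of 12 fits), and Hmgb3, a chromatin protein, from 12.1 to 8.44 FPKM (adjusted p = 0.0234, 9 of 12 fits). Their log2 fold changes went from -0.33 to -0.1 and from -0.47 to -0.0 with the marker covariates. Once library medians were subtracted, Hmgb3 passed (adjusted p = 0.0354), and Gaa, Cox10 and Gfra2 did not (adjusted p from 0.0541 to 0.148). Others were Tsn, Emc1, Tmem57, Igsf8, Kctd7, B930041F14Rik, 0610009O20Rik, Zdhhc8, Ebag9, Dact2, Ttc9, Tmem216, Plcd3, 2700046G09Rik, Fhod3, Lurap1, Lzts1 and Klhdc8a, which with Clptm1 and Tmem163 passed in 1 to 11 of 12 fits.

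The same 108 genes were then tested for a difference between the 10 min group and 6 VEH-T3 mice, which had the same vehicle and were trained for 3 min. Over all tested rows 6 genes (0.0455%) passed this test, and 3 of them were among the 66 lowered genes and 0 among the 42 raised ones. Nucks1, a chromatin-associated DNA-binding protein at chr1:131910534-131936321, averaged 28.9 ± 1.13 FPKM in home-cage mice, 25.5 ± 1.27 after 10 min and 29.5 ± 1.31 after 3 min (SD, n = 6, log2 difference of 10 min minus 3 min -0.2, adjusted p = 0.0313). Rlim, a ubiquitin ligase of the X chromosome at chrX:103957163-103981284, averaged 7.8 ± 0.39, 6.59 ± 0.436 and 8.07 ± 0.714 FPKM (SD, n = 6, difference -0.26, adjusted p = 0.0313). Nucks1 and Rlim were above the VEH-HC mean after 3 min of training and below it after 10 min. Their calls against VEH-HC held in 4 and 3 of 12 fits. The differences from VEH-T3 no longer passed once library medians were subtracted, when 0 genes passed the direct test.

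For most of the other genes the trained groups were not told apart. At an unadjusted p under 0.05, 6 raised genes of 42 and 24 lowered genes of 66 differed between the 10 min and 3 min groups, against 8.15% of all tested rows. The change from VEH-HC was further in VEH-T10 than in VEH-T3 for 31 raised genes of 42 and 54 lowered genes of 66, with median differences of 0.06 and -0.14 on the log2 scale and median SEs of 0.0698 and 0.0755. Both trained groups share the VEH-HC mice, and the genes were chosen for their change in VEH-T10, so a larger change there is partly built in. Rnf182 was the raised gene with the smallest p in the direct test, at 15.9 ± 1.73 FPKM in VEH-T10 and 13.6 ± 0.641 in VEH-T3 (SD, n = 6, adjusted p = 0.394). Homer1 averaged 21.9 FPKM in VEH-T10 and 22.4 in VEH-T3.

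Several gene groups tied to the question of the study held no gene past the threshold. Of 28 tested BAF complex subunits 0 passed, with 15 log2 fold changes above 0, 13 below and a median of 0.01. Ss18l1, which encodes CREST, averaged 12.3 ± 0.745 FPKM in VEH-HC and 12 ± 1.18 in VEH-T10 (SD, n = 6, adjusted p = 0.817). Crebbp, which encodes CBP, averaged 5.71 ± 0.947 and 6.0 ± 0.422 FPKM (SD, n = 6, adjusted p = 0.702). Of 17 tested ionotropic glutamate receptor genes 0 passed (median -0.02), and Grin2b, an NMDA receptor subunit, averaged 11.3 ± 3.34 and 8.64 ± 3.02 FPKM (SD, n = 6, adjusted p = 0.451). Hist1h4j, 1 of 26 tested rows of replication-dependent histones, averaged 1.05 ± 1.02 and 3.74 ± 3.47 FPKM (SD, n = 6, adjusted p = 0.301), with a spread as large as its mean.

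Housekeeping and stress hormone groups were likewise without a call. Of 16 tested glucocorticoid-responsive genes 0 passed and 11 had a log2 fold change above 0, with a median of 0.04. Of 92 tested rows of ribosomal proteins 67 lay above 0 with a median of 0.02, and of 93 nuclear oxidative phosphorylation genes 75 lay below 0 with a median of -0.05, in both cases with 0 past the threshold, where 40.3% of all tested rows lay above 0. At an unadjusted p under 0.05, 602 rows were higher and 1362 lower in VEH-T10 among all 13184 tested.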

How the data were processed

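Total RNA of 30 mice was sequenced as paired reads on NovaSeq and HiSeq instruments, with the instrument of each library not given in the sources used here, and samples with a RIN of at least 7 were kept. Per the submitters' processing notes, reads were aligned to mm10 with TopHat2 2.1.1 and Cufflinks 2.2.1 was used, and the authors deposited FPKM for 24883 rows and 30 columns, of which 0 were left out. FPKM holds no read totals. Relative depth, read from the steps of single fragments in 2642 rows of low FPKM, ranged from 0.947 to 1.2 in VEH-HC and from 0.897 to 1.23 in VEH-T10, and absolute depth is unknown.

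Rows with a mean of at least 1 FPKM were tested on the scale log2(FPKM + 1) by limma 3.58.1 in R 4.3.3, where each of the 5 conditions had its own mean and all 30 libraries shared the variance, with a trend and Benjamini-Hochberg adjustment over 13184 rows. The pseudocount of 1 draws fold changes of low genes toward 0. The test was checked on simulated data whose rows varied independently. That check does not cover variation shared between genes, such as unequal tissue content. Single sums were compared by exact permutation, and the mean log2 value of each of 3 marker lists entered as a covariate in 1 alternative. Coordinates come from GENCODE annotation of GRCm38 by symbol, and 280 symbols occupy 817 rows, tested singly. Other steps used Python 3.11.15.

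Genes past the threshold could be named. Values across mice are given for the 12 raised and 12 lowered genes with the largest fold changes among those without overlap, and of each list for the called members and up to 4 others with the highest level, beside genes the study names. The members and lists were chosen with earlier results of these data known. Alternatives were a pseudocount of 0.1, no filter, library medians subtracted, 12 libraries only, a replicate block, rows of a symbol summed, marker covariates, length and GC trends removed, unadjusted p values and each mouse left out. Some genes that passed the threshold are not reported here.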

Additional observations from a re-analysis of the deposited data

Results flagged for a closer look

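Each of the 115 named genes and 19 marker sums was examined in both groups for a mouse far from the other 5, with a gap that exceeds Dixon's 95% critical value. Of 268 groups 15 had one, where chance gives about 1 in 20, so the number is near what chance gives. 7 of the 15 were in VEH-HC mouse 4: Otub2 (16.3 FPKM), Emc1 (15), Rlim (7.02), Mapk3 (124), Grin2b (4.76 against a group median of 12), Crebbp (3.89) and the dentate gyrus marker sum (231). This is the mouse with the lower values for longer transcripts.

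In the other VEH-HC mice, Per2 was high in mouse 2 (5.32 FPKM), Pigk was high in mouse 5 (18.0) and Wnt9a was low in mouse 6 (2.43 against a median of 3.86). In VEH-T10, Gaa and Grin2b were high in mouse 1 (118 and 14.6 FPKM) and Fos in mouse 5 (9.16), Sfpq was low in mouse 5 (47.9), and Homer3 was high in mouse 6 (37.3 against a median of 26.9).

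Of the genes that fell in VEH-T10, 2 described above also differed between 10 min and 3 min of training in the direct limma test. The differences, VEH-T10 minus VEH-T3 on the log2 scale, were -0.2 for Nucks1 and -0.26 for Rlim.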

How the results depend on the processing

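Both counts stayed within 1.5 times of 42 raised and 66 lowered genes with a pseudocount of 0.1 (43 and 62), with no filter on mean FPKM (36 and 69) and with the rows of a symbol summed (42 and 66). Library medians subtracted gave 33 and 13, and left 0 in place of 6 genes in the direct test against VEH-T3. The 12 libraries alone gave 91 and 230, length and GC trends removed 71 and 122, and unadjusted p values 602 and 1362. The marker covariates gave 0 and 0. Alternatives chosen after seeing the data were the choroid plexus score alone (16 and 36), the thalamic score alone (796 and 799), the deep cortical score alone (27 and 47) and VEH-T10 mice 1 and 4 left out (18 and 41). Without 1 mouse the raised genes numbered 8 to 62 and the lowered 9 to 122. The cause was not tested.

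The replicate block gave 48 raised and 114 lowered genes. Replicate numbers belong to different mice, and the deviations of same-numbered mice correlated from -0.448 to 0.228, with 0 of 6 VEH-HC mice closest to its own number, so the numbers did not pair the samples.

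With the marker covariates the log2 fold change changed sign for Rgs8 (-0.04), Zfp503 (0.01), Klhdc8a (0.03), Camk2d (0.03), Ctgf (0.05) and, among genes that had not passed, Hpca (-0.07) and Hist1h4j (-0.46). With 1 mouse left out that of Crebbp ran from -0.02 (without VEH-HC mouse 4) to 0.11.

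Absolute depth is not known, so precision rests on the spread among 6 mice, and low values such as Fosb, Egr2 and Cited4 are the least precise.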
